A study of Homo sapiens with 9 samples.

Results

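Axon guidance ligands and receptors steer growing axons and also act in tissue boundaries and vessels. Of 19738 genes measured by a probe set of their own, 70 belong to these families, 36 ligands and 34 receptors. They were chosen by symbol and comprise 20 semaphorins, 9 plexins, 2 neuropilins, 5 ephrin-A and 3 ephrin-B ligands, 9 EPHA and 4 EPHB receptors, 3 SLIT ligands, 4 ROBO receptors, 5 netrins and netrin-G proteins, 4 UNC5 receptors, and DCC and NEO1. UNC50, whose symbol has the same letters, encodes an unrelated Golgi protein and was left out. Semaphorins signal through plexins, the secreted class with neuropilins as co-receptors. Ephrins are bound to the cell surface and signal through EPH receptor kinases on neighbouring cells, while SLIT proteins act through ROBO receptors and netrins through DCC, NEO1 and UNC5. In the embryonic head these systems guide cranial and sensory axons, shape the paths of neural crest cells and keep territories apart.

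The study set out to differentiate human embryonic stem cells (hESC) towards otic progenitors, the founder cells of the inner ear. It used 3 established lines, Shef3, H14 and Shef1. The DFNB group held cells plated on laminin for 14 days in serum-free DFNB medium, made of DMEM and F12 with N2 and B27 supplements. The FGF3+10 group had the same medium for 14 days with 50 ng/ml of FGF3 and 50 ng/ml of FGF10 added, and the hESC group was undifferentiated cells at day 0, grown on mouse embryonic fibroblast feeders with basic FGF. RNA was read on Affymetrix arrays, 1 array per line in each group, so that a group holds 3 arrays and its spread includes differences between lines. The labels do not say whether cultures of a line were repeated, and RNA from feeder cells was not measured separately.

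All levels are log2 signals as deposited, with every array at the same median over probe sets of 3.20. No detection calls were used here. Values near and below 4 are noisy: the median spread within groups (SD) was 1.16 for members with a mean below 4 and 0.67 for the others. Of the 70 members, 36 were at 4 or above on all 9 arrays and 9 were below 4 on all 9. In lists of 3 values the order is Shef3, H14 and Shef1 throughout. A level of 1 probe set is compared only with itself across arrays.

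The pluripotency factor NANOG differed widely between the lines at day 14. It stood at -10.17, 6.33 and 9.64 in DFNB, -7.62, 7.72 and 9.14 in FGF3+10 and 11.10, 10.21 and 10.73 in hESC, so the Shef1 arrays kept a high level. The array means of 11 pluripotency markers spanned 2.49 to 7.65 in DFNB, 2.87 to 7.68 in FGF3+10 and 8.56 to 10.21 in hESC, those of 12 neural progenitor markers 7.01 to 8.69 in DFNB, 7.50 to 8.80 in FGF3+10 and 5.92 to 6.86 in hESC, and those of 14 neuronal markers 6.72 to 7.86 in DFNB, 5.84 to 7.40 in FGF3+10 and 5.58 to 6.49 in hESC. By line the neural progenitor mean was 7.60, 7.01 and 8.69 in DFNB and 7.81, 7.50 and 8.80 in FGF3+10, highest in Shef1. Of these 12 markers 7 averaged higher and 5 lower than in hESC in each comparison. Mesenchyme and fibroblast markers, 12 genes, spanned 8.16 to 10.44 in DFNB, 6.57 to 10.03 in FGF3+10 and 7.62 to 8.25 in hESC, and 10 endothelial markers 2.86 to 3.48 in DFNB, 2.14 to 3.39 in FGF3+10 and 2.51 to 2.89 in hESC. Of 9 otic and preplacodal markers 5 were higher in DFNB and 5 in FGF3+10 than in hESC on average, with none called without the block and 1, DLX5, with it (adjusted p = 0.0498 in DFNB and 0.0443 in FGF3+10). Of 9 neural crest markers, with array means of 6.41 to 6.62 in DFNB, 5.66 to 6.94 in FGF3+10 and 5.64 to 6.35 in hESC, 6 were higher in DFNB and 5 in FGF3+10. With the block, in which the cell line is a term of the fit, 1 of them was called, TFAP2A (adjusted p = 0.0322 in DFNB and 0.0321 in FGF3+10). In such bulk samples fewer cells of a type and less RNA per cell cannot be told apart, and the part of cell composition in the changes described here was not tested.

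Day 14 cells, with or without the added FGFs, had more transcript of several guidance genes, with UNC5C, SLIT2, SEMA3E and EFNA5 among those with the clearest separation in averages over the lines. EPHA1, SEMA6A and SEMA4A had the lowest average changes. Without the block no member, higher or lower, passed the test in either comparison. With the block EFNA5 and SLIT2 passed in both, UNC5C only in DFNB and SEMA3E only in FGF3+10. EPHA1, SEMA6A and SEMA4A passed in neither. In DFNB 45 members were higher on average than in hESC and 25 lower (39.5% of all genes were higher), with a median change of 0.45 against -0.19 over all genes. In FGF3+10 40 were higher and 30 lower (37.6% of all genes were higher), with a median of 0.24 against -0.19. With values below 4 set to 4, a floor, the members' medians were 0.27 in DFNB and 0.0938 in FGF3+10. Changes given here are not shifted for these medians of all genes. The members' median by line was 0.67, 0.36 and 0.32 in DFNB and 0.66, 0.05 and 0.40 in FGF3+10. Since both comparisons use the same hESC arrays, their values are given side by side and are not independent.

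The limma fit without a term for the line called 0 of 70 members between DFNB and hESC at an adjusted p below 0.05, against 0.203% of all genes. It called 0 between FGF3+10 and hESC, against 0.177%. At an unadjusted p below 0.05, 18 members (25.7%) were higher and 3 (4.29%) lower in DFNB, against 6.09% and 9.7% of all genes. In FGF3+10 there were 13 higher (18.6%) and 2 lower (2.86%), against 4.5% and 7.49%. With the cell line as a block, which takes the difference between lines out of the spread, 3 members were called in DFNB (EFNA5, SLIT2 and UNC5C) and 3 in FGF3+10 (EFNA5, SEMA3E and SLIT2), all higher than in hESC. The block called 0.958% of all genes in DFNB and 0.583% in FGF3+10. Without any 1 of the lines, the blocked fit called 0 members and 0 genes in either comparison, in fits with fewer arrays. The block fitted on only the 6 arrays of the groups compared also called 0 members in each. Among the blocked fits, members were thus called only in the fit of all 9 arrays. Since the fits without a line called 0 genes at all, they cannot show whether a member's call depends on 1 line.

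**Figure D1:**
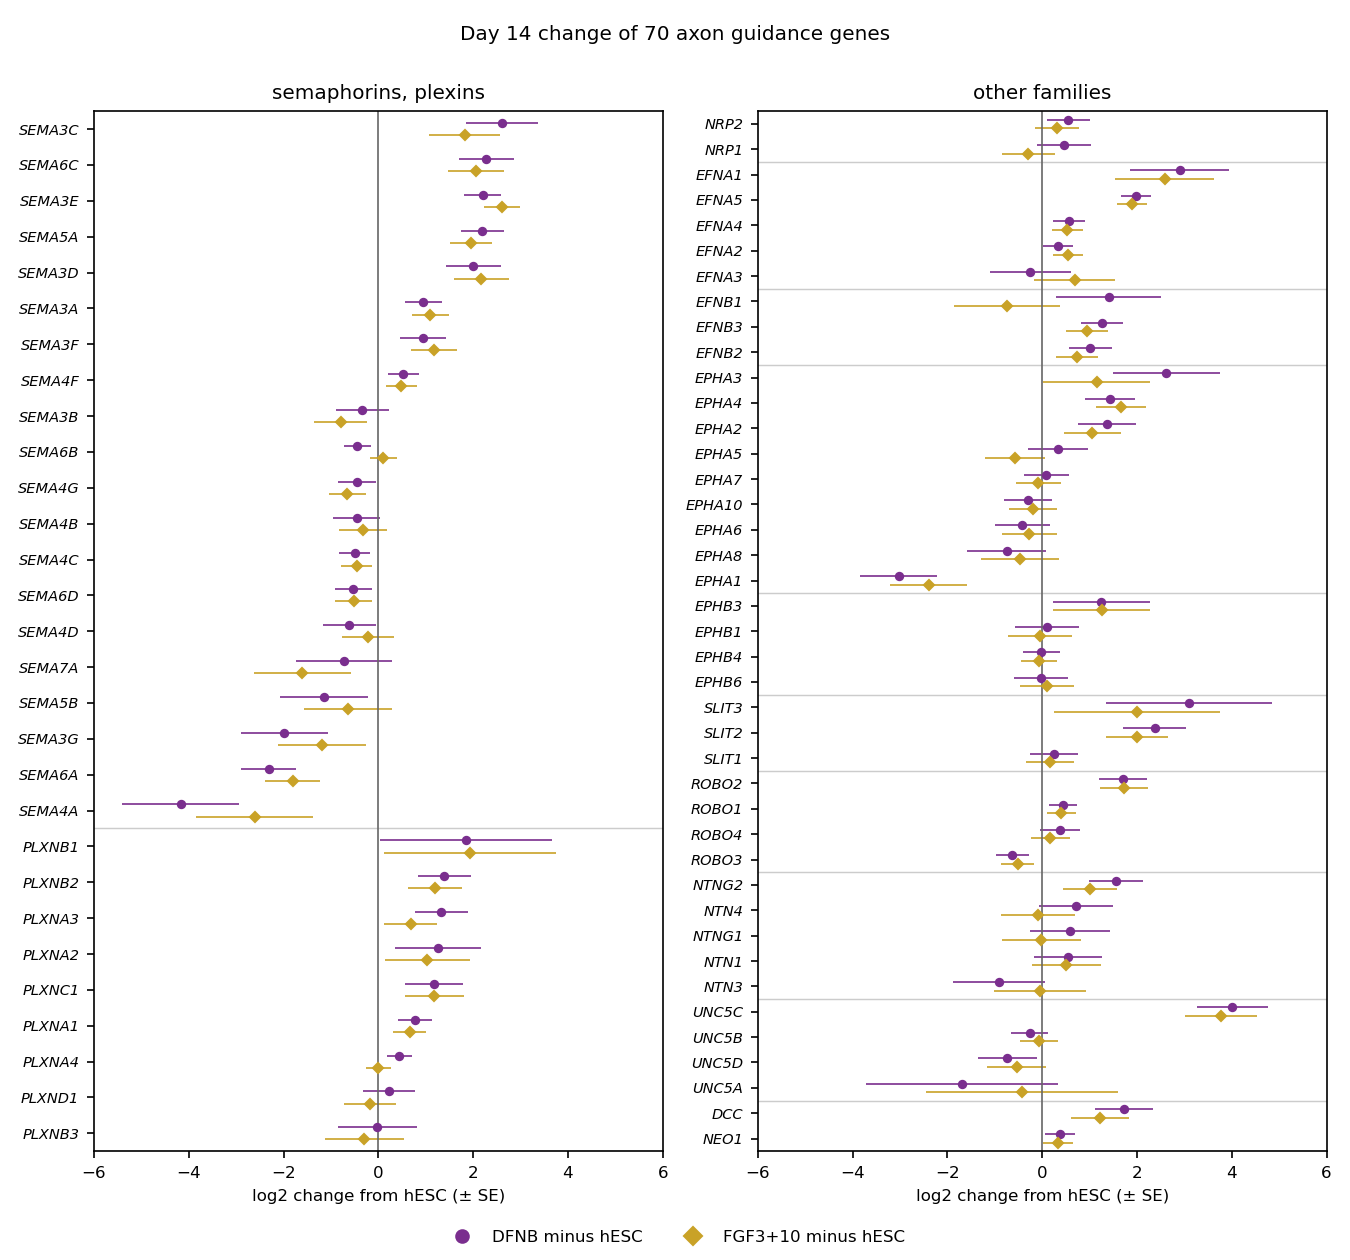
Change of each of the 70 members from hESC on the log2 scale, with the SE of the limma fit without a block, for DFNB (circles) and FGF3+10 (diamonds), ordered by family. UNC5C lies highest, at 4.01 in DFNB and 3.77 in FGF3+10, and SEMA4A lowest, at -4.17 and -2.61.

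Counting arrays instead, all 3 DFNB values exceeded all 3 hESC values for 17 members (24.3%), against 7.79% of all genes. The reverse held for 5 members (7.14%), against 14.4%. In FGF3+10 the counts were 12 above (17.1%, against 5.66%) and 3 below (4.29%, against 11.3%). Members thus separated upwards more often, and downwards less often, than genes at large, as a description of these arrays. A gain of at least 1 log2 unit in every line was seen in DFNB for 10 members (2.81% of all genes): EFNA1, EFNA5, PLXNB1, SEMA3C, SEMA3E, SEMA5A, SEMA6C, SLIT2, SLIT3 and UNC5C. In FGF3+10 it was seen for 8 (2.03% of all genes): EFNA1, EFNA5, EPHB3, PLXNB1, SEMA3E, SEMA6C, SLIT2 and UNC5C. Some of these gains lay wholly below 4, where signals are noisy. This held for SEMA6C in every line, and in Shef1 for PLXNB1 and SLIT3 in DFNB and for PLXNB1 and EPHB3 in FGF3+10. A loss of that size in every line was seen in DFNB for 3 members, EPHA1, SEMA4A and SEMA6A (3.49% of all genes), and in FGF3+10 for 0 (3.12%).

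Among the SLIT ligands, secreted proteins that repel many axons, all 3 averaged higher at day 14. SLIT2 stood at 9.70, 9.15 and 7.99 in DFNB, 9.51, 8.85 and 7.37 in FGF3+10 and 7.07, 6.89 and 5.77 in hESC. Every day 14 array lay above every hESC array, and Shef1 was the lowest line in each group. The change was 2.37 ± 0.66 in DFNB (adjusted p = 0.164) and 2.0 ± 0.66 in FGF3+10 (adjusted p = 0.278), and with the block the rise passed in both, at adjusted p = 0.0257 and 0.0443. SLIT3 stood at 8.22, 6.91 and 3.45 in DFNB, 7.72, 5.56 and 2.02 in FGF3+10 and 4.17, 4.57 and 0.56 in hESC. It was higher at day 14 within each line, yet the groups overlapped because Shef1 lay far below the others. The change was 3.09 ± 1.75 in DFNB (adjusted p = 0.418) and 2.0 ± 1.75 in FGF3+10 (adjusted p = 0.682), and the block brought the DFNB value to 0.0533. SLIT1, the form best known from the nervous system, had changes of 0.24 ± 0.51 in DFNB and 0.16 ± 0.51 in FGF3+10.

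Of the SLIT receptors, ROBO2 stood at 6.16, 6.40 and 5.21 in DFNB, 6.11, 6.52 and 5.19 in FGF3+10 and 3.83, 3.84 and 4.99 in hESC. All day 14 values exceeded all hESC values, by 0.22 and 0.20 in Shef1 and by more than 2 in the other lines. The change was 1.70 ± 0.51 in DFNB (adjusted p = 0.18) and 1.72 ± 0.51 in FGF3+10 (adjusted p = 0.228). ROBO1 had a high signal on every array, between 8.86 and 9.89, with changes of 0.44 ± 0.30 in DFNB and 0.40 ± 0.30 in FGF3+10. ROBO3, which modulates crossing of the midline, had changes of -0.63 ± 0.35 in DFNB and -0.52 ± 0.35 in FGF3+10. ROBO4, known from endothelium, stayed below 4 on all 9 arrays, as did the endothelial list mean. That list was mixed: PECAM1, KDR and TEK were above 4 on all 9 arrays, and CDH5, ESAM, EMCN and CLDN5 below 4 on all 9.

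Ephrin-A ligands are held to the membrane by a lipid anchor. EFNA5, known for its part in mapping retinal axons, stood at 10.06, 9.32 and 9.29 in DFNB, 9.47, 9.35 and 9.57 in FGF3+10 and 7.82, 7.33 and 7.57 in hESC. The 6 day 14 values lay within 0.77 of each other and clear of all hESC values. The change was 1.98 ± 0.31 in DFNB (adjusted p = 0.057) and 1.89 ± 0.31 in FGF3+10 (adjusted p = 0.0696). With the block the rise passed at adjusted p = 0.041 and 0.0498, and the floor of 4 gave 0.0168 and 0.0253. EFNA1 stood at 7.49, 7.81 and 5.12 in DFNB, 6.93, 8.19 and 4.34 in FGF3+10 and 4.74, 3.76 and 3.21 in hESC. It was higher at day 14 in every line, and most in H14, with changes of 2.90 ± 1.04 in DFNB and 2.58 ± 1.04 in FGF3+10 (adjusted p = 0.248 and 0.371). EFNA2 had changes of 0.33 ± 0.32 in DFNB and 0.54 ± 0.32 in FGF3+10, and EFNA4 of 0.57 ± 0.33 in DFNB and 0.53 ± 0.33 in FGF3+10. EFNA3 stood at 4.86, 3.42 and 1.96 in DFNB, 4.01, 5.26 and 3.76 in FGF3+10 and 3.33, 5.0 and 2.65 in hESC. In FGF3+10 it was above hESC in every line. In DFNB it was higher in Shef3 and lower in H14 and Shef1.

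The ephrin-B ligands span the membrane and can signal back into the cell that bears them. EFNB2 had changes of 1.02 ± 0.45 in DFNB and 0.73 ± 0.45 in FGF3+10, and EFNB3 of 1.26 ± 0.44 in DFNB and 0.95 ± 0.44 in FGF3+10. Each was higher at day 14 in all 3 lines. EFNB1 stood at 4.26, 3.99 and 2.19 in DFNB, 0.15, 3.68 and 0.16 in FGF3+10 and 0.57, 3.52 and 2.14 in hESC. Its values scattered around and below 4, and FGF3+10 Shef3 and FGF3+10 Shef1 were near 0.

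The EPHA receptors went both ways. EPHA1 stood at 4.10, 5.15 and 5.55 in DFNB, 3.87, 6.84 and 5.97 in FGF3+10 and 8.95, 7.99 and 6.93 in hESC. It was lower in every day 14 array than in any hESC array, least so in Shef1. The change was -3.03 ± 0.82 in DFNB (adjusted p = 0.153) and -2.40 ± 0.82 in FGF3+10 (adjusted p = 0.289). EPHA4, a receptor of broad ligand choice that is common in the hindbrain and ear, stood at 8.11, 8.83 and 8.77 in DFNB, 8.57, 8.50 and 9.36 in FGF3+10 and 7.73, 7.74 and 5.98 in hESC. All day 14 values exceeded all hESC values, with changes of 1.42 ± 0.53 in DFNB and 1.66 ± 0.53 in FGF3+10 (adjusted p = 0.259 and 0.26). EPHA2 was higher at day 14 in each line, by 0.14, 2.13 and 1.83 in DFNB and 0.91, 1.33 and 0.94 in FGF3+10. EPHA3 stood at 6.52, 6.11 and 5.71 in DFNB, 6.21, 3.64 and 4.07 in FGF3+10 and 0.74, 4.76 and 4.98 in hESC. The hESC Shef3 array was far below the rest, with changes of 2.62 ± 1.13 in DFNB and 1.15 ± 1.13 in FGF3+10. Without that array the DFNB change was 1.24. In FGF3+10 EPHA3 was lower than in hESC in H14 and Shef1, so its average rise there rests on Shef3. EPHA8 stood at 1.62, 0.03 and 2.94 in DFNB, 0.35, 2.09 and 3.01 in FGF3+10 and 2.07, 2.15 and 2.62 in hESC, below 4 throughout. EPHA5 stood at 2.86, 2.35 and 3.17 in DFNB, 2.72, 0.76 and 2.18 in FGF3+10 and 1.29, 3.03 and 3.07 in hESC, also below 4, and lower in FGF3+10 H14 than elsewhere. EPHA6 and EPHA10 had their highest array at 4.22 and 3.16.

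Of the EPHB receptors, EPHB4 had changes of -0.02 ± 0.38 in DFNB and -0.06 ± 0.38 in FGF3+10. EPHB1 averaged 0.11 ± 0.67 in DFNB and -0.04 ± 0.67 in FGF3+10, over lines that went opposite ways, with -0.87, -0.47 and 1.66 in DFNB and -0.41, -1.19 and 1.48 in FGF3+10. EPHB6, a receptor without kinase activity, stood at 5.69, 6.01 and 4.43 in DFNB, 5.72, 5.98 and 4.79 in FGF3+10 and 5.73, 5.95 and 4.51 in hESC. Within a line its values differed by at most 0.36, less than Shef1 lay below the other lines. EPHB3 was higher at day 14 in each line, by 1.42, 0.78 and 1.54 in DFNB and 1.01, 1.43 and 1.31 in FGF3+10.

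The semaphorins went both ways, and no class was tested. Of the 7 secreted class 3 genes 5 averaged higher in DFNB and 5 in FGF3+10, with medians of 0.95 and 1.18. Of the 6 membrane-bound class 4 genes 1 averaged higher in each, SEMA4F, with medians of -0.48 and -0.39, where 39.5% and 37.6% of all genes averaged higher. Of the 2 class 5 genes 1 averaged higher in each, and of the 4 class 6 genes 1 in DFNB and 2 in FGF3+10. SEMA3E, which binds PLXND1 without a neuropilin, stood at 5.54, 4.62 and 5.12 in DFNB, 5.42, 5.76 and 5.32 in FGF3+10 and 3.22, 2.25 and 3.22 in hESC. The day 14 arrays lay between 4.62 and 5.76 and the hESC arrays below 4. The change was 2.20 ± 0.38 in DFNB (adjusted p = 0.0652) and 2.60 ± 0.38 in FGF3+10 (adjusted p = 0.0515). With the block these were 0.0533 and 0.0489, so that only the FGF3+10 value passed. With the floor of 4 the change was 1.09 and 1.50.

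SEMA3C, a secreted cue of crest and vessels, stood at 9.25, 10.15 and 8.81 in DFNB, 9.68, 9.17 and 6.98 in FGF3+10 and 6.17, 6.39 and 7.80 in hESC. FGF3+10 Shef1 was below hESC Shef1, the exception among the day 14 arrays. Its change was 2.61 ± 0.76 in DFNB and 1.82 ± 0.76 in FGF3+10 (adjusted p = 0.17 and 0.385). SEMA3D stood at 3.96, 3.99 and 2.58 in DFNB, 3.91, 4.17 and 2.97 in FGF3+10 and 1.70, 0.56 and 2.25 in hESC. All day 14 values exceeded the hESC values, but the levels were low and the changes of 2.01 ± 0.58 in DFNB and 2.17 ± 0.58 in FGF3+10 shrank to 0.00 and 0.06 with the floor. SEMA3A, a classic repellent that collapses growth cones, was above its hESC range on all 3 FGF3+10 arrays, with a change of 1.10 ± 0.38 that did not pass (adjusted p = 0.303). SEMA3G stood at -0.92, 1.63 and 2.53 in DFNB, 0.42, 2.65 and 2.56 in FGF3+10 and 2.47, 3.53 and 3.19 in hESC, and SEMA3B at -1.91, -1.93 and -2.11 in DFNB, -1.88, -2.57 and -2.86 in FGF3+10 and -0.93, -1.01 and -3.01 in hESC. Both lay below 4 on all arrays.

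SEMA5A, a transmembrane semaphorin with thrombospondin repeats, stood at 8.13, 7.73 and 7.19 in DFNB, 7.98, 6.99 and 7.35 in FGF3+10 and 4.87, 6.18 and 5.42 in hESC. Every day 14 array was above every hESC array. The change was 2.20 ± 0.45 in DFNB (adjusted p = 0.0825) and 1.95 ± 0.45 in FGF3+10 (adjusted p = 0.136). Its relative SEMA5B stood at 2.38, 4.47 and 5.03 in DFNB, 3.18, 4.33 and 5.91 in FGF3+10 and 4.03, 6.39 and 4.91 in hESC, lower at day 14 in Shef3 and H14 and higher in Shef1.

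SEMA6A, a transmembrane semaphorin that binds PLXNA2 and PLXNA4, stood at 7.58, 8.45 and 7.71 in DFNB, 7.57, 9.42 and 8.28 in FGF3+10 and 11.07, 10.20 and 9.41 in hESC. It was lower at day 14 within each line, and in DFNB the groups did not overlap. The change was -2.31 ± 0.58 in DFNB (adjusted p = 0.136) and -1.81 ± 0.58 in FGF3+10 (adjusted p = 0.264). FGF3+10 H14 lay just above hESC Shef1. SEMA4A stood at -0.74, -0.15 and 2.86 in DFNB, -0.43, 2.97 and 4.10 in FGF3+10 and 4.97, 5.05 and 4.45 in hESC. The hESC arrays were close together while the day 14 arrays ranged widely, lowest in Shef3. The change was -4.17 ± 1.23 in DFNB (adjusted p = 0.178) and -2.61 ± 1.23 in FGF3+10 (adjusted p = 0.445), and with the floor of 4 it was -0.82 and -0.79. The mean of the pluripotency list, 2.49, 6.31 and 7.65 in DFNB, 2.87, 7.57 and 7.68 in FGF3+10 and 10.21, 9.55 and 8.56 in hESC, was likewise lowest in Shef3 at day 14, and its part in the lower EPHA1, SEMA4A and SEMA6A values was not tested.

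SEMA6C stood at -1.04, -1.95 and -1.45 in DFNB, -1.01, -1.90 and -2.18 in FGF3+10 and -2.72, -3.61 and -4.95 in hESC, far below 4, so its changes of 2.28 ± 0.58 in DFNB and 2.06 ± 0.58 in FGF3+10 are 0 with the floor. SEMA7A, which is held by a lipid anchor and binds PLXNC1, stood at 3.96, 5.85 and 1.88 in DFNB, 3.96, 3.83 and 1.26 in FGF3+10 and 4.82, 4.46 and 4.57 in hESC. DFNB H14 was above and the Shef1 day 14 arrays far below their hESC values. SEMA4G stood at 4.44, 3.94 and 3.73 in DFNB, 3.57, 3.86 and 4.07 in FGF3+10 and 4.87, 4.85 and 3.73 in hESC, a narrow range close to 4.

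**Figure D2:**
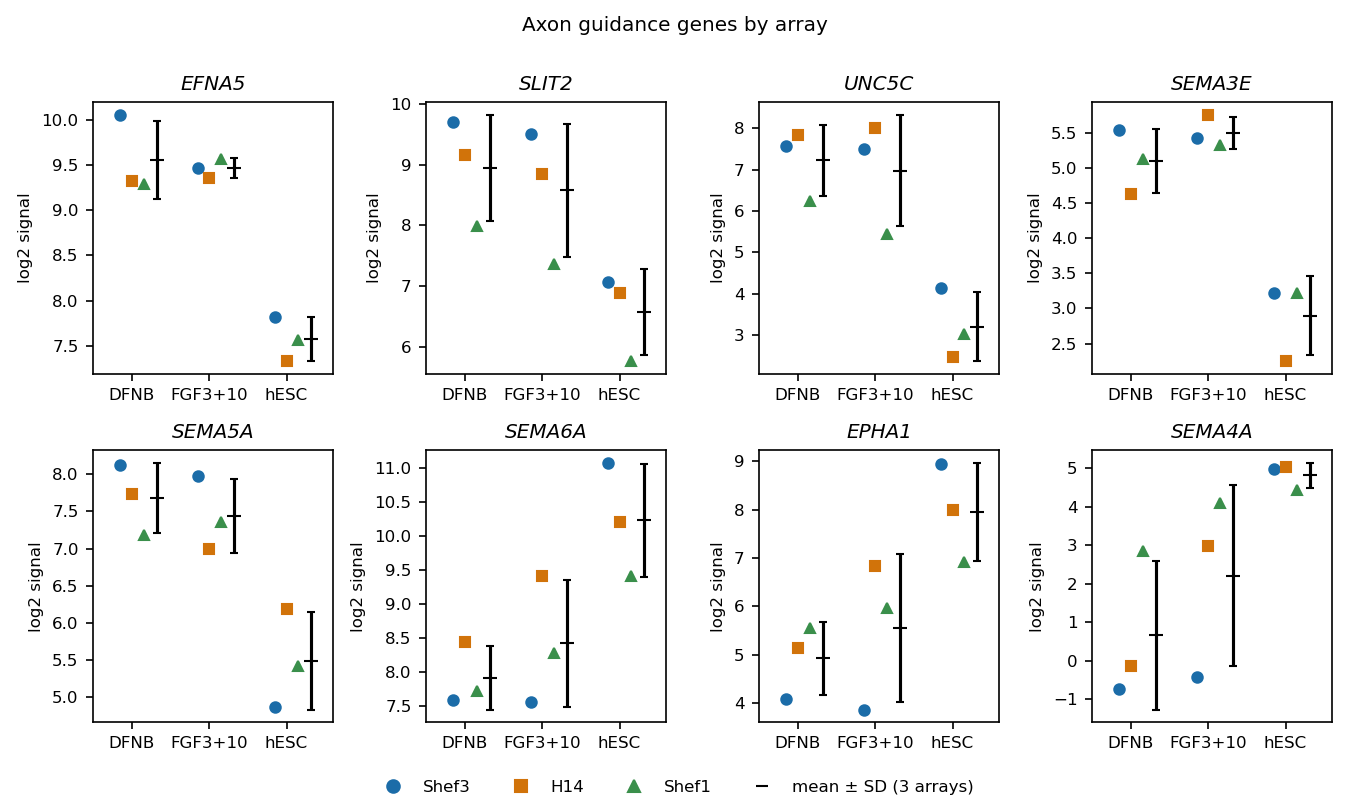
Log2 signal of 8 members on each array, by group (DFNB, FGF3+10, hESC) and cell line, with the group mean and SD beside the points (n = 3 arrays). In EFNA5, SLIT2, UNC5C, SEMA3E and SEMA5A each day 14 point lies above each hESC point; EPHA1 and SEMA4A show the reverse, and SEMA6A does so in DFNB.

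The plexins, receptors of the semaphorins, leaned upwards: 8 of 9 averaged higher in DFNB and 7 in FGF3+10, with medians of 1.17 and 0.68, and none was called. PLXNB2 stood at 8.76, 9.08 and 7.54 in DFNB, 8.87, 8.71 and 7.19 in FGF3+10 and 7.06, 7.47 and 6.66 in hESC, higher at day 14 in each line. Its changes were 1.40 ± 0.57 in DFNB and 1.19 ± 0.57 in FGF3+10 (adjusted p = 0.29 and 0.447). PLXNA1, PLXNA2 and PLXNB1 were also higher at day 14 in every line. PLXND1, the SEMA3E receptor, had changes of 0.23 ± 0.55 in DFNB and -0.17 ± 0.55 in FGF3+10, and in FGF3+10 it was higher in Shef3 and lower in H14 and Shef1. The co-receptor NRP1 had changes of 0.46 ± 0.56 in DFNB and -0.29 ± 0.56 in FGF3+10, and NRP2 of 0.55 ± 0.46 in DFNB and 0.31 ± 0.46 in FGF3+10. A further NRP1 probe set, with a mean of 5.28, gave -0.67 in DFNB and -1.43 in FGF3+10.

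Among the netrin receptors, UNC5C, which mediates repulsion from netrin, had the largest average increase of any member. It stood at 7.57, 7.84 and 6.24 in DFNB, 7.50, 7.99 and 5.44 in FGF3+10 and 4.13, 2.47 and 3.02 in hESC. No day 14 value came within 1 log2 unit of the highest hESC value, and the Shef1 gain was the smallest. The change was 4.01 ± 0.75 in DFNB (adjusted p = 0.0692) and 3.77 ± 0.75 in FGF3+10 (adjusted p = 0.103), and with the block the adjusted p was 0.0448 and 0.0575, so that the DFNB rise passed. With the floor of 4 the change was 3.18 and 2.93. UNC5B had changes of -0.27 ± 0.40 in DFNB and -0.07 ± 0.40 in FGF3+10, and UNC5D of -0.73 ± 0.62 in DFNB and -0.54 ± 0.62 in FGF3+10. UNC5A stood at -2.51, -0.65 and 2.02 in DFNB, -2.33, -0.43 and 5.40 in FGF3+10 and -0.90, 3.36 and 1.49 in hESC, which is lower at day 14 in Shef3 and H14 and higher in Shef1.

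DCC, the attractive netrin receptor, stood at 5.32, 5.38 and 6.27 in DFNB, 5.97, 3.88 and 5.62 in FGF3+10 and 3.21, 4.69 and 3.91 in hESC. All DFNB values exceeded the hESC values, while FGF3+10 H14 lay within their range. The change was 1.72 ± 0.62 in DFNB (adjusted p = 0.248) and 1.22 ± 0.62 in FGF3+10 (adjusted p = 0.474). NEO1, which also binds repulsive guidance molecules, stood between 6.96 and 8.0. Of the ligands, NTN1 was nearly level across the hESC lines and was higher at day 14 mainly in H14, at 4.08, 5.88 and 4.22 in DFNB, 4.72, 6.08 and 3.28 in FGF3+10 and 4.15, 4.22 and 4.19 in hESC. NTN3 stood at 0.11, -0.53 and 1.09 in DFNB, -0.85, 2.27 and 1.86 in FGF3+10 and -0.54, 2.13 and 1.81 in hESC, below 4 on all arrays. NTNG2, a membrane-anchored netrin-G, had changes of 1.57 ± 0.57 in DFNB and 1.01 ± 0.57 in FGF3+10 (adjusted p = 0.252 and 0.521), and the DFNB and hESC arrays did not overlap.

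The 4 genes called with the block are shown with the 250 bases before their transcription starts, taken from RefSeq (GRCh38.p14) and written on the strand of the gene. Capitals mark GGGCGG or its complement CCGCCC, the GC box, and TATAAA or its complement TTTATA, the TATA box; these motifs do not overlap here. SEMA3E has 2 annotated starts.
EFNA5 chr5:107670938-107671187, minus strand: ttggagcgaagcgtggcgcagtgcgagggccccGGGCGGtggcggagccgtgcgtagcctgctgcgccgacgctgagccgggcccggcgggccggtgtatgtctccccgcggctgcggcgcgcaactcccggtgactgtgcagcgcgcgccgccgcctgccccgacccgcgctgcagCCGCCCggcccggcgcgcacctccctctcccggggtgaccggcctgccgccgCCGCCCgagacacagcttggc
SLIT2 chr4:20251655-20251904, plus strand: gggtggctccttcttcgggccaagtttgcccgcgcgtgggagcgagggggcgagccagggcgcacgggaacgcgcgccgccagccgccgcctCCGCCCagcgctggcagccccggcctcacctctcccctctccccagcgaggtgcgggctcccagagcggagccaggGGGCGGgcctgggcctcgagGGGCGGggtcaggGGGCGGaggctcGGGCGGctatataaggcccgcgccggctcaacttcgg
UNC5C chr4:95548974-95549223, minus strand: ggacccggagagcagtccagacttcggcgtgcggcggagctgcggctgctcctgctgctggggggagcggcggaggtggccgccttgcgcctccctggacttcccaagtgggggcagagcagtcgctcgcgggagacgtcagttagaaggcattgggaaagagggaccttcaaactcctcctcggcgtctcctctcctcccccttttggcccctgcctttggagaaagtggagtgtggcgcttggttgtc
SEMA3E chr7:83641432-83641681, minus strand: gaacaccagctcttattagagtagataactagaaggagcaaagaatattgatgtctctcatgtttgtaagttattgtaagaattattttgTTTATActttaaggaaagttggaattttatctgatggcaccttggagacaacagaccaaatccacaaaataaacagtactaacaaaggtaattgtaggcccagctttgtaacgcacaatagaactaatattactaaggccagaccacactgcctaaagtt
SEMA3E chr7:83649140-83649389, minus strand: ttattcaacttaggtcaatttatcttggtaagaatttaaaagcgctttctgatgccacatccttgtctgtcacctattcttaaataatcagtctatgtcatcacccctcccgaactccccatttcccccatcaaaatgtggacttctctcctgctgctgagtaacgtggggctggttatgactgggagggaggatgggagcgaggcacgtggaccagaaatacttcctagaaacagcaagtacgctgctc
EFNA5 holds 3 and SLIT2 5 GC boxes, with 41 and 30 CpG dinucleotides. UNC5C holds no match and 17 CpG dinucleotides, and the SEMA3E starts hold 1 and 6, with the complement letters TTTATA in the first of them. Only the exact letters were searched, on either strand and at any position in the window. Variant forms were not marked, such as tatataag near the end of the SLIT2 window. Over 35116 such windows of RefSeq genes 42.6% hold a GC box and 10.7% a TATA box. Over 92 windows of 59 members the shares are 69.6% and 3.26%. A match is a description of the letters only, and the 4 genes share no motif of this pair.

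The comparison between the media asks what the added FGFs changed at day 14. The members' median difference between FGF3+10 and DFNB was -0.04, with 30 higher in FGF3+10 (50.5% of all genes), against 0.00 over all genes. By line it was -0.10, -0.08 and -0.01. Limma called 0 members and 0 of all genes (0%), also with the block, and at an unadjusted p below 0.05 it gave 0 members, against 1.51% of all genes. SEMA6B was higher on every FGF3+10 array than on any DFNB array, at 4.66, 5.32 and 4.84 in FGF3+10 and 4.20, 4.40 and 4.57 in DFNB. The reverse held for PLXNA4, at 4.0, 3.83 and 4.29 in FGF3+10 and 4.46, 4.51 and 4.49 in DFNB, close to the noisy level of 4. Another PLXNA4 probe set, with a mean of 3.15, overlapped between the groups. It stood at 5.29, 2.79 and 3.23 in FGF3+10 and 4.98, 4.86 and 4.06 in DFNB. SEMA6B and PLXNA4 were 1 and 1 of 70 members, against 1.46% and 1.72% of all genes.

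Among the largest average differences, SEMA4A differed by 1.56 ± 1.23 and EFNB1 by -2.15 ± 1.11, but by 0.03 and -0.09 with the floor of 4. UNC5A differed by 1.26 ± 2.03, which rests on Shef1: 0.18, 0.23 and 3.38 by line. EFNA3 and NTN3 differed by 0.93 and 0.87, higher in H14 and Shef1 and lower in Shef3. SEMA3G differed by 0.79, with every array of both groups below 4. EPHA3 differed by -1.47 ± 1.13 and was lower in every line, by -0.30, -2.47 and -1.64. SLIT3 was also lower in every line, by -0.49, -1.35 and -1.43, and so was EPHA5, by -0.14, -1.59 and -0.98. SEMA7A differed by -0.88, most of it in H14. For the genes that stood out against hESC the difference was small: -0.09 ± 0.31 for EFNA5, -0.37 ± 0.66 for SLIT2, -0.24 ± 0.75 for UNC5C and 0.41 ± 0.38 for SEMA3E. A difference that misses the threshold does not show that the media act alike. The SEs given here are from the fit without a term for the line, so they include the spread between lines. In that fit an SE of 0.75 for UNC5C leaves room for sizeable differences.

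**Figure D3:**
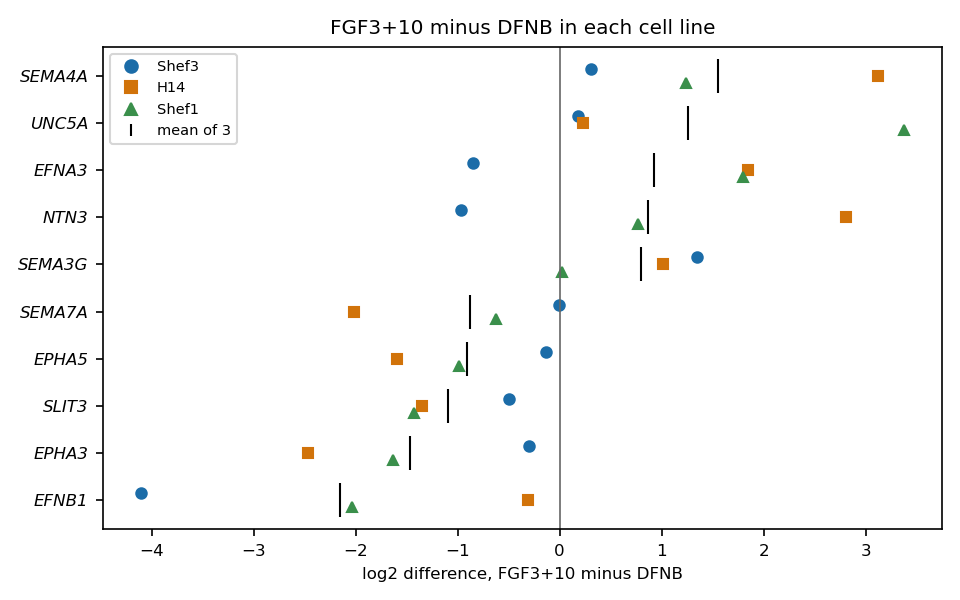
Log2 difference FGF3+10 minus DFNB within each cell line (symbols) and its mean (bars) for the 5 members with the highest and the 5 with the lowest mean difference. Lines of 1 gene lie up to several units apart, as in UNC5A, and EPHA3, SLIT3 and EPHA5 lie below 0 in all 3 lines.

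The cell lines themselves differed in several members, in each group. In a model of group and line, limma's moderated F test called 4 of 70 members, against 0.486% of all genes: PLXNB1 (adjusted p = 0.0088), SLIT3 (0.0367), EPHB3 (0.0379) and PLXNA2 (0.0488). In all of them Shef1 was the low line. At an unadjusted p below 0.05 it was 16 members (22.9%), against 20.3% of all genes. PLXNB1, a receptor for SEMA4D, averaged 6.39 ± 0.74 in Shef3 and 6.10 ± 1.39 in H14, against 1.75 ± 1.19 in Shef1 (SD, n = 3 arrays). By array it stood at 6.74, 7.08 and 2.19 in DFNB, 6.90, 6.72 and 2.65 in FGF3+10 and 5.54, 4.51 and 0.40 in hESC. Each Shef1 array lay below every array of the other lines. SLIT3 averaged 6.70 ± 2.21 in Shef3 and 5.68 ± 1.17 in H14, against 2.01 ± 1.45 in Shef1. EPHB3 stood at 6.15, 5.91 and 3.83 in DFNB, 5.75, 6.56 and 3.60 in FGF3+10 and 4.73, 5.13 and 2.29 in hESC, and PLXNA2, a receptor of class 6 semaphorins, at 7.69, 8.71 and 5.82 in DFNB, 7.65, 8.19 and 5.71 in FGF3+10 and 6.37, 7.02 and 5.07 in hESC. SLIT2 and EPHB6 came next (adjusted p = 0.0683 and 0.0751), also lowest in Shef1.

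All 3 Shef1 arrays lay below the other 6 for 6 members (8.57%): EPHB3, EPHB4, EPHB6, PLXNA2, PLXNB1 and SLIT3. The same held for 11.2% of all genes, so this share is near the background. They lay above the other 6 for EPHA8 and UNC5D (3.55% of all genes). The Shef3 arrays lay below the rest for SEMA4D, SEMA5B and UNC5A (1.44% of all genes), and the H14 arrays above the rest for EPHB6 (2.13%). The bacterial poly-A spike-ins, added to the RNA before labelling, moved with the line too, at 4.72 to 5.43 on the Shef3 and H14 arrays against 7.21 to 7.28 on the Shef1 arrays. Their part in the line differences was not tested. After quantile normalisation PLXNB1 alone of the 4 was called, with the mean of probe sets EPHB3 and SLIT3, and with the floor of 4 PLXNA2 alone, beside EPHB6 and SLIT2. Leaving out any 1 group left no member called.

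**Figure D4:**
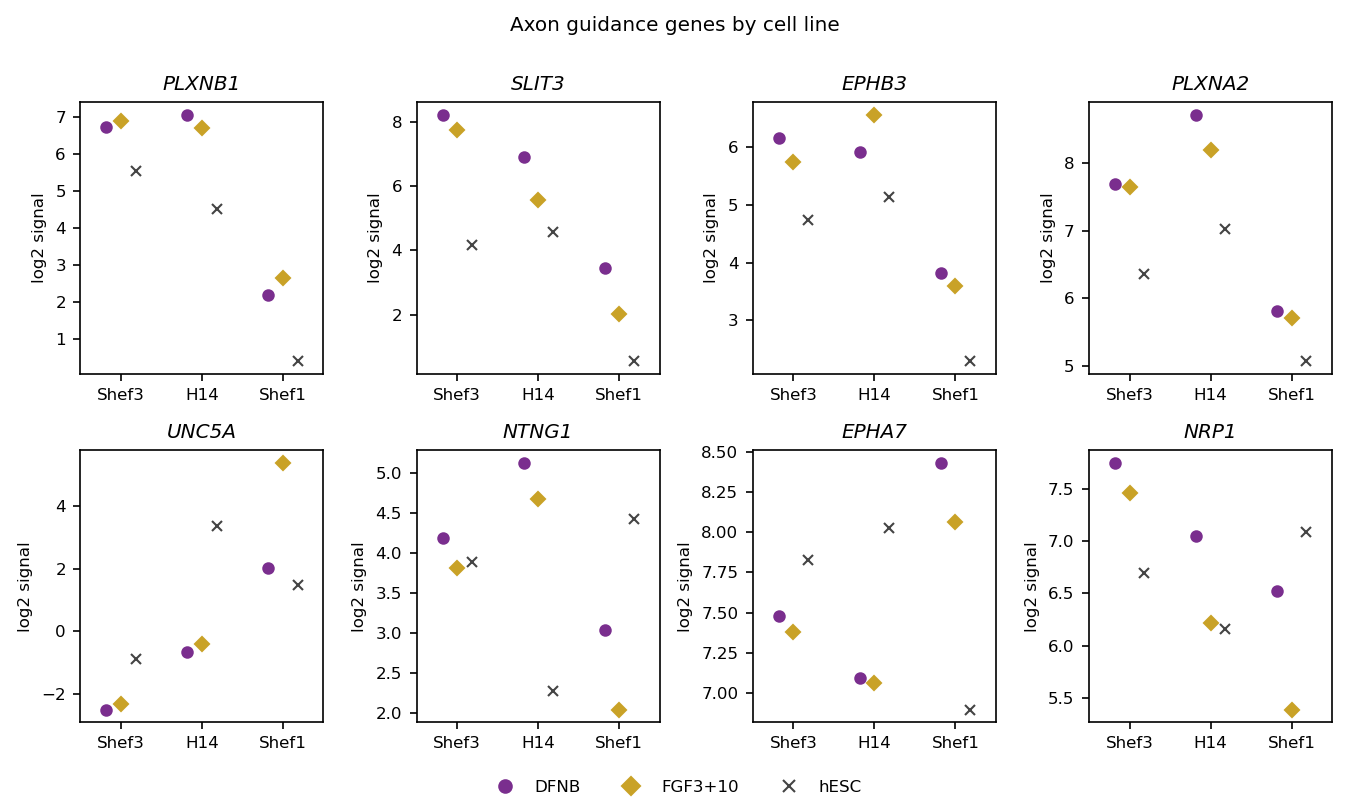
Log2 signal of 8 members by cell line, with a symbol for each group (DFNB, FGF3+10, hESC). In PLXNB1, SLIT3, EPHB3 and PLXNA2 the Shef1 points lie below all others; in UNC5A, NTNG1, EPHA7 and NRP1 the day 14 points move away from hESC in opposite directions in different lines.

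Other genes of guidance signalling were described for context, from lists that hold no member. Of 23 further cues and receptors none was called in either comparison with hESC, with or without the block, and the medians were -0.01 in DFNB and -0.44 in FGF3+10. The largest absolute changes were 1.63 for the axonal adhesion protein CNTN2 and -1.59 for LINGO1 in DFNB, and 1.30 for FLRT2 and -1.28 for the chemokine receptor CXCR4 in FGF3+10. Of 43 intracellular effectors 27 averaged higher in DFNB and 22 in FGF3+10. Without the block 1 was called, higher in DFNB, where 0.203% of all genes were called. The medians were 0.21 and 0.02. The called gene was DPYSL4, of the CRMP family that relays semaphorin signals to the cytoskeleton. It stood at 8.16, 8.57 and 7.66 in DFNB, 8.36, 7.86 and 7.46 in FGF3+10 and 5.33, 5.90 and 5.05 in hESC. Its change was 2.71 ± 0.39 in DFNB (adjusted p = 0.0449) and 2.47 ± 0.39 in FGF3+10 (adjusted p = 0.0618, and 0.0373 with the block).

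Most members have further probe sets, 106 over 51 genes, of which 31 in DFNB and 36 in FGF3+10 had the opposite sign to the one used. Among the 39 that averaged at least 4 it was 6 and 7. Of the 18 whose gene changed by at least 1 in DFNB, 1 had the opposite sign, in EFNB3. In FGF3+10 it was 0 of 19. The other SLIT2 probe sets gave DFNB changes of 2.71 and 2.84, and those of EFNA5 with a mean of at least 4 gave 2.13 and 2.76. The other UNC5C probe set with a mean of at least 4 gave 1.48 in DFNB and 1.48 in FGF3+10, smaller than the values above. For SEMA5A a further probe set gave 0.10, against 2.13 for another, so its probe sets disagree. SEMA3E has a single probe set, as do EFNA1 and SEMA6C.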

How the data were processed

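Total RNA of 9 samples was amplified from the 3' end and hybridised to Affymetrix arrays, per the labels' protocols. The deposited values are log2 signals per probe set; log2 is an assumption, since the sources used here do not give the software, background correction or logarithm base. Of 54675 probe sets 62 are controls, 41091 name 1 gene, 1801 several and 11721 none in the table used; Entrez identifiers of 41037 matched RefSeq, and 49 probe sets whose symbol is not in RefSeq were left out. Each of 19738 genes was represented by its probe set of highest average signal on these arrays.

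Group differences were fitted by lmFit and eBayes of limma 3.58.1 (R 4.3.3) with 1 mean per group over all 9 arrays, and Benjamini-Hochberg adjustment ran over all genes (threshold 0.05). Lines were tested by limma's moderated F, with group and line as terms. The line labels pair the arrays. Between arrays of 1 line the deviations from their group means had correlations of 0.105, 0.0863 and 0.338 (DFNB with hESC), 0.182, 0.259 and 0.284 (FGF3+10 with hESC) and 0.401, 0.331 and 0.714 (FGF3+10 with DFNB). The highest correlations with another line were 0.0799, 0.173 and -0.133, then -0.0729, 0.0563 and -0.0698, then 0.222, 0.0354 and -0.418. For DFNB with hESC, H14 was thus closer to another line and Shef3 nearly as close. Alternatives were a line block, 2-group fits, quantile normalisation, a floor or filter at 4, mean probe sets, array weights and left-out lines or arrays. The code of the fit was run on simulated arrays whose errors were independent, with no spread shared within a line. Such a run cannot decide between the fits with and without the block.

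Members and lists were chosen with earlier results of these data known. Values in every array are given for members called in any fit with or without the block, the 8 largest rises and falls against hESC, the 5 and 5 between the media and the 6 largest line F values; others were named after their values were seen. P-values measure only the spread between these arrays, which are of different lines. Promoters come from RefSeq. The number of arrays limits precision.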

Additional observations from a re-analysis of the deposited data

Results flagged for a closer look

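Some members lay away from hESC in opposite directions in different lines, by at least 0.5 on both day 14 arrays of each line. Values are DFNB and FGF3+10 changes within a line, with the difference of their means, and none of these differences was tested. NTNG1, a membrane-anchored netrin-G, differed from hESC by 2.85 and 2.40 in H14 against -1.39 and -2.38 in Shef1, a difference of 4.52. Its hESC H14 value of 2.27 and its Shef1 day 14 values of 3.03 and 2.04 were below 4. With the floor of 4 the NTNG1 changes are thus smaller in both lines. UNC5A differed from hESC by 0.54 and 3.91 in Shef1 against -1.62 and -1.43 in Shef3 (difference 3.75) and -4.02 and -3.79 in H14 (difference 6.13). All UNC5A values of Shef3 and H14 were below 4, where signals are noisy, so with the floor of 4 those changes are 0. EPHA7, an ephrin receptor with a high signal on all arrays, differed from hESC by 1.54 and 1.17 in Shef1 against -0.94 and -0.97 in H14, a difference of 2.31. NRP1 differed from hESC by 1.05 and 0.76 in Shef3 against -0.56 and -1.70 in Shef1, a difference of 2.04. Another NRP1 probe set, with a mean of 5.28, was lower at day 14 in all 3 lines, so the opposite directions were not seen on it. Its values were 5.50, 5.29 and 5.14 in DFNB, 5.46, 4.26 and 3.95 in FGF3+10 and 6.33, 5.69 and 5.93 in hESC. EPHA5 and EPHA6, both with low signals, were higher at day 14 in Shef3 and lower in H14, with differences of 2.98 and 2.64. In each case the 2 day 14 arrays of a line share 1 hESC array, so they are not independent.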

How the results depend on the processing

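The number of members called depended on how the spread was estimated. In the comparisons with hESC, alternatives were run for 17 members each and none of these changed sign; for the other members named they were not run. Between DFNB and hESC 40 genes and 0 members were called by limma (21 members at an unadjusted p below 0.05), and between FGF3+10 and hESC 35 genes and 0 members (15). With the cell line as replicate block it was 189 and 115 genes and 3 and 3 members, with only the 6 arrays of the groups compared 26 and 15 genes, and with the block on those 6 arrays, chosen after seeing the data, 4 and 10 genes and 0 members. With values below 4 set to 4 it was 184 and 124 genes and 1 and 2 members, among genes with a mean of at least 4 122 and 66 genes and 4 and 2 members, and with array weights, where the estimation stopped before it converged, 1631 and 292 genes and 16 and 5 members. Quantile normalisation and the mean of probe sets gave 0 members in each. Leaving out a line or an array gave 0 to 71 genes in DFNB, 0 to 32 in FGF3+10 and 0 members in both. The block changed no other call of a named member. EFNA5 passed in 4 alternatives in each comparison with hESC, over which its adjusted p ranged from 0.0137 to 0.5 in DFNB and 0.0253 to 0.549 in FGF3+10. The median change of members lay between 0.39 and 0.56 in DFNB and between 0.17 and 0.52 in FGF3+10 when arrays or lines were left out. It was 0.27 and 0.0938 with the floor and 0.28 and 0.17 with the mean of probe sets.

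Between FGF3+10 and DFNB every alternative gave 0 genes and 0 members. The median difference was -0.11 with array weights and -0.213 to 0.0231 when arrays or lines were left out. With the block and without the H14 line it was -0.0957. The sign turned when 1 array or line was left out for UNC5A (-0.995 to 2.87 over these fits, negative without FGF3+10 Shef1), SLIT3 (-2.46 to 0.45, positive without FGF3+10 Shef1), SEMA3G (-0.207 to 1.52, negative without DFNB Shef3), SEMA7A (-1.89 to 0.0933, positive without DFNB H14) and NTN3 (-0.0961 to 1.84, negative without the H14 line, with or without the block). For the cell lines, 96 genes and 4 members were called. It was 58 genes and 1 member after quantile normalisation, 217 and 2 with the mean of probe sets, 4490 and 19 with array weights, 468 and 3 with the floor (PLXNA2 of the 4, with EPHB6 and SLIT2) and 491 and 6 without dim genes. Without the FGF3+10, DFNB or hESC arrays it was 10, 6 or 4 genes and 0 members, in fits with fewer samples. Causes of these shifts other than fewer samples or genes were not tested. With 3 arrays a group, changes of low signals are the least certain.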
